A study of Mus musculus with 8 samples.

Results

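The expression array of this series carries a set of probes for long noncoding transcripts, and these were examined across 8 samples of mouse neurospheres. The set was taken as all non-control spots whose probe identifier starts with A_30_P, which gave 16251 of the 55681 non-control probes. None of the 16251 matched a RefSeq gene through its accession, against 27235 of all probes on the array, so in place of a gene symbol each is known by the target that the files name. For 16194 of them the target is a position on the mm9 mouse genome, the build named in the file headers, and these positions form 3543 distinct regions. The remaining 57 carry 1 of 12 transcript names, among them XIST, TSIX, NEAT1, NEAT2, H19, HOTAIR, KCNQ1ot1 and TUG1.

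Neurospheres are free-floating balls of cells that form when neural stem cells divide in culture. Here they came from the ganglionic eminence, the ventral forebrain zone that gives rise to inhibitory neurons, of E14.5 embryos, with 1 embryonic brain for each sample and 7 days of culture in a medium with EGF and bFGF. The samples are 3 wild-type cultures labelled floating (WT floating 1, 2 and 3), 3 cultures without HP1gamma labelled floating (KO floating 1, 2 and 3) and 2 cultures without HP1gamma labelled adherent (KO adherent 1 and 2). HP1gamma, encoded by Cbx3, is a member of the heterochromatin protein family that reads a methylation mark of histone H3 and is found in silent as well as in transcribed chromatin. How the Cbx3 gene was inactivated, the mouse strain, the sex of the embryos and how the adherent cultures differed in handling are not given in the sources used here, and it is not given whether a floating and an adherent culture share an embryo.

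The Cbx3 signal did not follow the labels of 2 arrays. On a log2 scale that sets each array's 75th percentile to 0, probe A_55_P1969072 read 5.83, 5.95 and 5.91 on WT floating 1, WT floating 3 and the array labelled KO adherent 2. It read between -2.76 and -1.75 on the other 5 arrays, which are KO floating 1, 2 and 3, KO adherent 1 and the array labelled WT floating 2. The sources do not say whether this probe targets the part of Cbx3 that was removed. The first 3 arrays are called Cbx3-high and the other 5 Cbx3-low below. This split is a measured value and not a label, no array was renamed, and the comparisons as labelled are given beside it.

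The arrays also differed in other ways. Of 6 neural stem cell markers (Nes, Sox2, Vim, Fabp7, Pax6 and Msi1) 6 were well above background on all 8 arrays, whereas of the ganglionic eminence markers Dlx1 and Dlx2 were above background on some arrays but not all, and Gsx2 and Nkx2-1 on 0 arrays. Markers of other cells were above background on all arrays for 2 of 4 neuronal, 3 of 3 oligodendrocyte, 1 of 4 microglial, 1 of 3 endothelial, 0 of 2 blood and 0 of 3 fibroblast genes. Y-linked probes put WT floating 1 and KO floating 3 apart as male. The 75th percentile of the processed signal lay between 616 and 865 intensity units, and 0 noncoding probes were saturated on any array.

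Long noncoding RNAs are transcripts that are not translated, and many are spliced and polyadenylated like messenger RNAs. Some act where they are made: Xist coats the X chromosome that is silenced in female cells, Tsix runs antisense to it and opposes it, and Kcnq1ot1 silences imprinted neighbours on the paternal chromosome. Others work in nuclear bodies, as Neat1 does as the scaffold of paraspeckles and Malat1 in nuclear speckles. In neural cells such transcripts are known for restricted, often low expression, and many lie beside developmental transcription factor genes.

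Of the 12 transcript names in the files, 10 matched a RefSeq gene by symbol or synonym and 6 of these had a promoter in the RefSeq table of the GRCm38.p6 assembly. The promoters of the 4 whose probes are described most closely are printed here, from 250 bases before the transcript start to 50 after it. Whether the array probes report on transcripts from these starts was not tested. NEAT2 is the RefSeq synonym of Malat1. Capitals mark each CG dinucleotide, the site of DNA methylation in mammals.
Xist, chrX:103483184-103483483, minus strand: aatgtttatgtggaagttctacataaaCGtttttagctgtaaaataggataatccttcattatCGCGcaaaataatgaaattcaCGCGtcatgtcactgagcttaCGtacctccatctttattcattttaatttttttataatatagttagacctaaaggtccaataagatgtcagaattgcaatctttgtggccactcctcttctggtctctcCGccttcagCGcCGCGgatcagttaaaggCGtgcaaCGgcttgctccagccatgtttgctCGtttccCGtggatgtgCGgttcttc
Malat1, chr19:5802623-5802922, minus strand: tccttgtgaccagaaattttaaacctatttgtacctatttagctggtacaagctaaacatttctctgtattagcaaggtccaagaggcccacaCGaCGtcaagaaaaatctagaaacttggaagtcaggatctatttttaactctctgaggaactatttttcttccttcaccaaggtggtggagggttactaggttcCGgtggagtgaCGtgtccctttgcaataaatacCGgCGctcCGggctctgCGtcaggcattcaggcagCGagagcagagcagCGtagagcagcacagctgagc
Tug1, chr11:3648765-3649064, minus strand: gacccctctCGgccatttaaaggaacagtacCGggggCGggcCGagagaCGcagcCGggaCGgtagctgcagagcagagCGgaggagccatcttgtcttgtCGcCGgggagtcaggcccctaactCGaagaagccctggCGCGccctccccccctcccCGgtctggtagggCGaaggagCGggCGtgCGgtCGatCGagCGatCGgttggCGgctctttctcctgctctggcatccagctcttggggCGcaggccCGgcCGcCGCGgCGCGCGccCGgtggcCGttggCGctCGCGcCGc
Kcnq1ot1, chr7:143296498-143296797, minus strand: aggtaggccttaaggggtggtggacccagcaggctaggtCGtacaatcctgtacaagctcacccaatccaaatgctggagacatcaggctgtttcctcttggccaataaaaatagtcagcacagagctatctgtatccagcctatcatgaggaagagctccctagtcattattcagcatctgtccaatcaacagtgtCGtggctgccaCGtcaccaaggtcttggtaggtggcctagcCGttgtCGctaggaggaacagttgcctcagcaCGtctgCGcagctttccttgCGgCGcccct
The CG count was 15 for Xist, 10 for Malat1, 37 for Tug1 and 9 for Kcnq1ot1, beside a median of 7 over all 32851 promoters of this length. Counts at least this high were found in 34.6%, 43.5%, 5.58% and 45.8% of them. Of these 4, the promoter of Tug1 held the most CG dinucleotides.

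The regions differ widely in extent and in how they were probed. Their median length was 7304 bases with quartiles of 786 and 21807, and the shortest spanned 62 bases. A region held a median of 3 probes and at most 20, and 428 regions held 1 probe. The files mark positions with F or R, taken here as the strand, although no header says whether it is that of the transcript or of the probe. Probes of F alone covered 1251 regions, probes of R alone 1222, and 1067 regions were probed on F and R. Regions on 1 strand overlap in places. Merged on each strand separately, they formed 3365 loci, whereas the 3543 regions count both strands together. Neither a genome nor an annotation of mm9 was at hand, so whether a region lies within a gene, an exon or an intron is not given.

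Most noncoding probes gave little or no signal. A probe counts as detected where the scanner software flagged its spot as well above background. On 0 of the 8 arrays were 8003 probes (49.2%) detected, against 30.1% of the other probes, and on all 8 arrays 3059 (18.8%), against 48.7% of the others. A further 2127 (13.1%) were detected on 1 array alone. The rest, on 2 to 7 arrays, made up 3062 probes. Counted by region, 1465 (41.3%) held at least 1 probe detected on all arrays.

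Detection per array ran from 22.4% of noncoding probes on WT floating 3 to 37.3% on KO adherent 1. The Cbx3-high arrays had 27.4%, 22.4% and 28.0% (WT floating 1, WT floating 3 and KO adherent 2). The Cbx3-low arrays had 36.0%, 26.0%, 37.2%, 30.4% and 37.3% (KO floating 1, KO floating 2, WT floating 2, KO floating 3 and KO adherent 1). KO floating 2 lay among the Cbx3-high arrays, so the levels overlapped. The means were 33.4% ± 5.0 (SD, n = 5) and 25.9% ± 3.1 (SD, n = 3), and the difference did not pass an exact permutation test over arrays (two-sided p = 0.107; the smallest possible is 0.0357). The other probes went the same way, with 59.8% ± 2.9 and 55.8% ± 2.6 (SD; exact permutation p = 0.143). The lowest signal that counted as well above background was also lower on the Cbx3-low arrays, at -4.43 ± 0.34 against -3.94 ± 0.41 (log2, SD), and its part in the detection rates was not tested. Without the 2 arrays that go against their label the means were 32.4% ± 5.2 (SD, n = 4) and 24.9% ± 3.5 (SD, n = 2; exact permutation p = 0.267, with 0.133 the smallest possible).

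**Figure D1:**
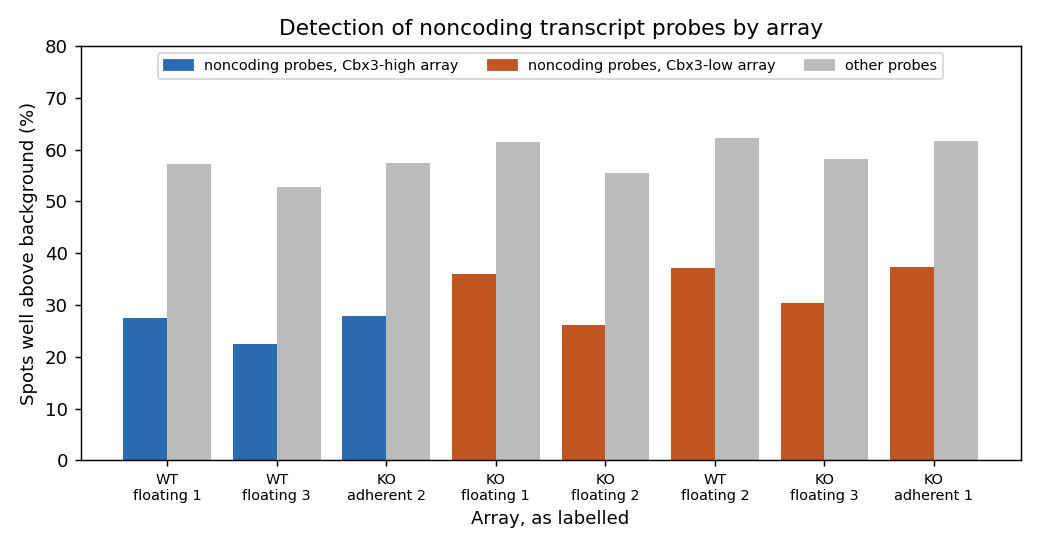
Share of spots well above background (%, vertical axis) on each of the 8 arrays (horizontal axis, named as labelled), for the noncoding probes (blue on Cbx3-high, orange on Cbx3-low arrays) and the other probes (grey). The noncoding probes lie between 22.4% and 37.3% and the other probes between 52.9% and 62.3%, and KO floating 2 has 26.0% although its Cbx3 signal is low.

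Probes to the shortest regions were detected least often. Of probes to regions of up to 1000 bases 14.9% were detected on all arrays, of those to longer regions of up to 10000 bases 19.8%, of up to 50000 bases 18.6% and beyond that 21.3%. By chromosome the share lay between 14.1% (chromosome 9) and 23.8% (chromosome 17). Of the 1067 regions probed on both strands, 251 (23.5%) had a probe detected on all arrays on each strand, 212 on F alone, 239 on R alone and 365 on neither. Signal was thus confined to 1 strand in 451 of these regions by this criterion, which a second strand just under background would also meet.

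Among the named transcripts, XIST separated the arrays most. Probe A_30_P01023652 read 4.51 on WT floating 3, 4.75 on KO adherent 2, 5.43 on KO floating 1, 5.04 on KO floating 2, 5.44 on WT floating 2 and 5.77 on KO adherent 1. It read -6.28 on WT floating 1 and -5.92 on KO floating 3, the arrays with Y-linked signal. Of the 5 XIST probes 4 were above background on exactly the 6 other arrays, and the fifth, A_30_P01032945, was also above background on WT floating 1, at -2.71. TSIX was not detected beside it: of 5 probes 4 were above background on 0 arrays and A_30_P01020162 on KO floating 2 alone. On the array's other probes, 1 of 2 RefSeq-matched Xist probes is given here, A_52_P113537, which was above background on the same 6 arrays. Each Cbx3 level and each labelled floating group held arrays with and without XIST signal, and the probe A_30_P01032945, which could be tested, did not pass (0.77, SE 2.66, limma adjusted p = 0.833).

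NEAT2 and NEAT1, which are transcripts of neighbouring genes, were low on the same pair of arrays. The NEAT2 probe A_30_P01019221 read 3.55, 4.38 and 4.43 on WT floating 1, WT floating 3 and KO adherent 2, 4.78 on KO floating 1, 4.83 on KO floating 3 and 5.00 on KO adherent 1, but 2.19 on KO floating 2 and 2.22 on WT floating 2. All 3 NEAT2 probes were lower on that pair than on each of the other 3 Cbx3-low arrays, by at least 2.57, and all 5 NEAT1 probes by more than 1. For A_30_P01019221 the Cbx3-low arrays spanned the Cbx3-high arrays. Neither transcript passed by Cbx3 level: NEAT2 probes differed by -0.32 to -0.15 and NEAT1 probes by -0.69 to -0.60 (limma adjusted p of 0.356 or more). WT floating 2 and KO floating 2 share a replicate number and a slide row. The same row held WT floating 1 and KO floating 1, at 3.55 and 4.78 for A_30_P01019221. KO adherent 2 has the same replicate number and read 4.43. The part of number or row in this pattern was not tested.

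**Figure D2:**
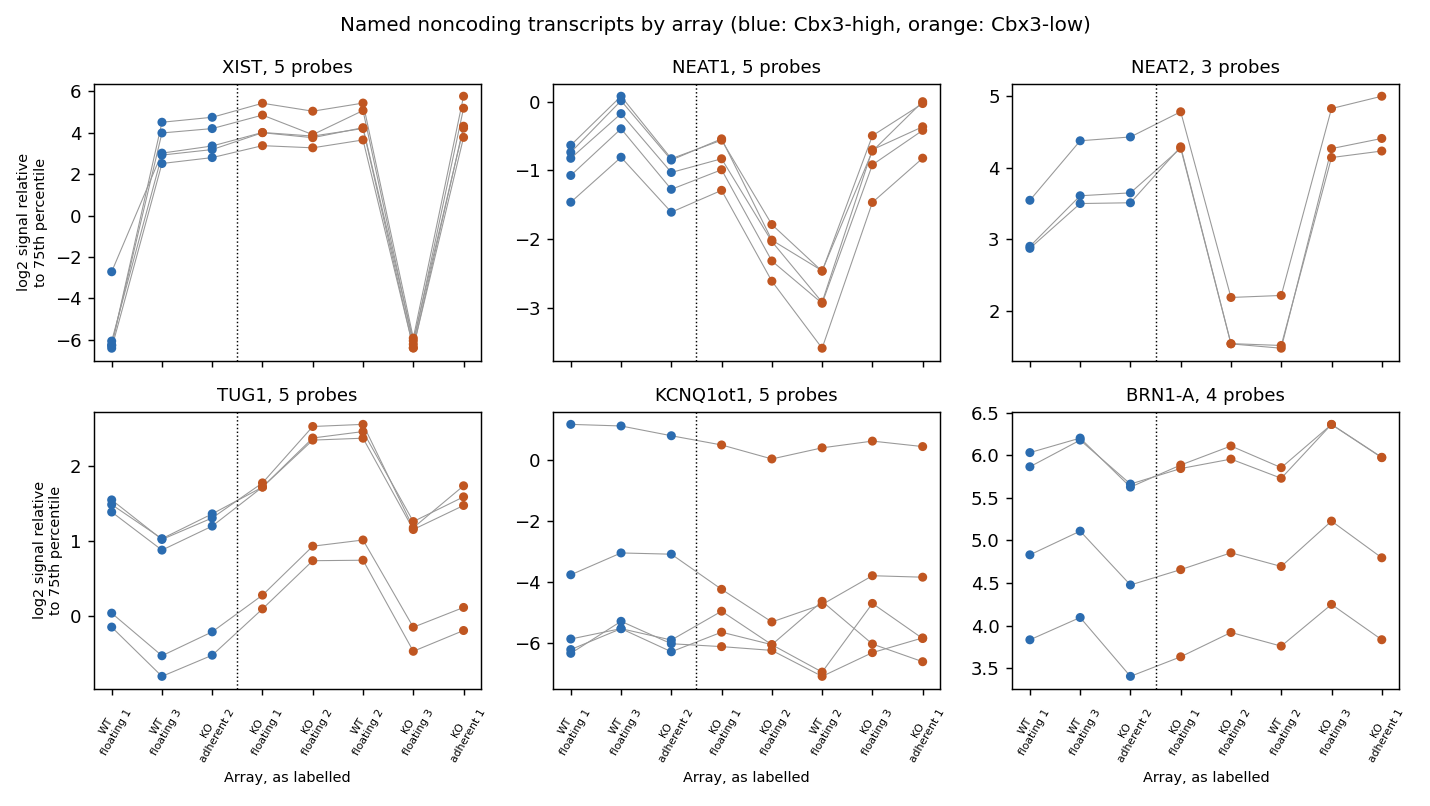
Signal of 6 named noncoding transcripts on the 8 arrays (horizontal axis, Cbx3-high arrays in blue left of the dotted line, Cbx3-low in orange), as log2 signal relative to the array's 75th percentile (vertical axis, its own range in each panel). Each line joins 1 probe: XIST drops on WT floating 1 and KO floating 3, NEAT1 and NEAT2 drop on KO floating 2 and WT floating 2, and BRN1-A stays level.

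TUG1, a broadly expressed transcript of the nucleus and cytoplasm, read higher on that same pair. Its probe A_30_P01032690 had 2.37 on KO floating 2 and 2.46 on WT floating 2, 1.26 to 1.72 on the other 3 Cbx3-low arrays and 1.03 to 1.49 on the Cbx3-high arrays. Its 5 probes differed by 0.59 to 0.67 between the levels, none past the threshold (limma adjusted p of 0.0992 to 0.137). Of 3 RefSeq-matched Tug1 probes 1 is given here, A_52_P599162, which did not show this pattern. It read 0.80 and 0.84 on the pair and 0.57 to 1.04 on the other 6 arrays, and by level it gave -0.13 (SE 0.12, limma adjusted p = 0.379). The 4 probes of BRN1-A differed by 0.04 to 0.10 (adjusted p of 0.691 or more), and on the other probes Pantr1, a noncoding gene next to the neural transcription factor gene Pou3f3, differed by 0.08 (SE 0.17, limma adjusted p = 0.705).

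KCNQ1ot1 was the named transcript whose tested probes passed, 2 of 2. Probe A_30_P01026203 read 1.16, 1.11 and 0.79 on the Cbx3-high arrays and 0.48, 0.03, 0.39, 0.61 and 0.43 on KO floating 1, KO floating 2, WT floating 2, KO floating 3 and KO adherent 1, so the levels did not overlap. It was lower by 0.63 on the Cbx3-low arrays, a log2 difference of -0.63 (SE 0.16, limma adjusted p = 0.0168). Probe A_30_P01026714 gave -1.08 (SE 0.36, adjusted p = 0.0469). It was above background on 3 of 3 Cbx3-high and 4 of 5 Cbx3-low arrays. It was thus tested through the Cbx3-high arrays alone, which favours a lower value on the Cbx3-low arrays. The 3 further probes were above background on 0 arrays. Of 2 RefSeq-matched Kcnq1ot1 probes 1 is given here, A_55_P2408415. It went the other way, at 0.74 (SE 0.18, limma adjusted p = 0.0147), so the probes of this transcript disagree in sign. A_55_P2408415 was above background on 2 of 3 Cbx3-high and 5 of 5 Cbx3-low arrays. It was thus tested through the Cbx3-low arrays alone, which favours a higher value there.

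The remaining names were faint. H19, a noncoding RNA made from the maternal copy of an imprinted locus, had 1 of 5 probes detected on all arrays, A_30_P01021588, with -0.42 (SE 0.68, limma adjusted p = 0.651). HOTAIR, transcribed in the Hoxc cluster, had 1 of 5 as well, A_30_P01022414, with -0.27 (SE 0.23, adjusted p = 0.377), and its other 4 were above background on 0 arrays. NRON had 1 of 5, A_30_P01025636, with -0.38 (SE 0.15, adjusted p = 0.0757). PINC and lincP21, 5 probes each, had none detected on all arrays. A lincP21 probe, A_30_P01021484, was above background on 4 of 5 Cbx3-low and on 0 of 3 Cbx3-high arrays, with -3.76, -3.59, -3.79, -4.80 and -3.60 on KO floating 1, KO floating 2, WT floating 2, KO floating 3 and KO adherent 1 against -6.19 to -5.43, and it was not tested because KO floating 3 was below background.

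By Cbx3 level, 25363 probes of the whole array could be tested, those well above background throughout the Cbx3-low arrays, the Cbx3-high arrays or both, and 9203 of them passed a limma adjusted p of 0.05 (36.3%). Of the noncoding probes 3926 were tested and 1243 passed (31.7%), a lower share than that background. They leaned upward: 846 were higher on the Cbx3-low arrays (21.5%, background 16.3%) and 397 lower (10.1%, background 20.0%). At 2-fold or more the counts were 407 higher (10.4%, background 6.57%) and 75 lower (1.91%, background 4.64%), 482 in all (background 11.2%). The median log2 difference of the tested noncoding probes was 0.0079, beside -0.089 over all probes tested. This gap depended on the scaling: with quantile normalization the medians were -0.019 and -0.014, and with normexp and quantile normalization -0.0089 and -0.0089. Under quantile normalization 18.98% of tested noncoding probes were higher, beside 16.9% of all, and 12.5% lower, beside 15.0% of all.

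Part of this lean is built into which probes could be tested. A probe detected on all Cbx3-low arrays but not on all Cbx3-high arrays was favoured to be higher, and 628 noncoding probes entered that way, 346 of them passing as higher and 3 as lower. By the opposite route 239 entered, of which 2 passed as higher and 40 as lower. The 3059 probes detected on all 8 arrays entered by neither route. The bar for detection was still unequal, with a lowest counted signal of -3.94 ± 0.41 on the Cbx3-high and -4.43 ± 0.34 on the Cbx3-low arrays (log2, SD). Whether this favoured lower calls among faint probes was not tested. In a fit of probes detected on all 8 arrays, 902 of 3059 noncoding probes passed (29.5%, background 36.1%). Of the 3059, 522 were higher (17.1%, background 14.1%) and 380 lower (12.4%, background 21.9%). Of passing probes 57.9% were thus higher among noncoding and 36.9% among other probes (2628 higher and 4500 lower of 19215 tested), a gap given as a description with no test. The medians of the difference were -0.065 and -0.12.

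**Figure D3:**
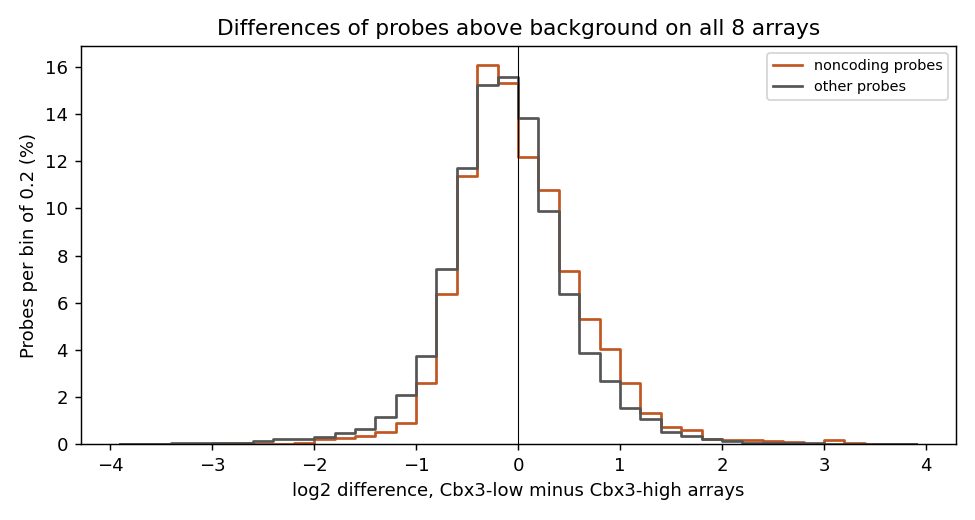
Distribution of the log2 difference, Cbx3-low minus Cbx3-high arrays (horizontal axis, bins of 0.2), as percent of probes per bin (vertical axis), for the 3059 noncoding probes (orange) and 19215 other probes (grey) detected on all 8 arrays. The noncoding curve peaks between -0.4 and -0.2 (16.1%) and the other between -0.2 and 0 (15.6%), and from 0.2 to 1.8 the noncoding probes lie higher, with 10.8% against 9.89% between 0.2 and 0.4 and 2.58% against 1.55% between 1.0 and 1.2.

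Signal strength went along with the direction of calls, and noncoding probes are mostly faint. With a mean log2 signal of -3 to -1, where 1535 of the 3059 lie, 398 passed and 67.6% of these were higher on the Cbx3-low arrays, against 54.1% of 1411 other passing probes. Between -1 and 1 the shares were 61.9% and 50.1%, and above 1 they were 36.4% and 25.4%. Below -3, where 17 noncoding probes passed, they were 23.5% and 9.62%. Passing probes of both kinds were thus mostly lower in the brightest and in the faintest bin, and the noncoding share was the higher of both in each of the 4 bins. Under quantile normalization 745 noncoding probes were higher and 491 lower.

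The values of the 2 levels did not overlap for 982 of the 3059 noncoding probes (32.1%, background 41.0%), with 532 higher (17.4%, background 15.7%) and 450 lower (14.7%, background 25.3%). Counted by target and over probes detected on all 8 arrays, 1724 regions or transcripts on a given strand had such a probe and 596 (34.6%) a passing one. A higher probe was held by 304 (17.6%) and a lower one by 298 (17.3%). Among the 11857 genes of the other probes 38.6% held a passing probe, 14.9% a higher and 24.1% a lower one. With 3 or more such probes, as for 371 targets, all probes passed as higher for 51 (13.7%), all as lower for 16 (4.31%) and none passed for 184 (49.6%). Of 439 genes with as many probes, 3.64% had all higher, 10.0% all lower and 36.2% none. Over all tested probes, 515 targets had 3 or more, and the median distance between the lowest and highest difference within one was 0.37. On both strands 331 regions were tested and 53 had passing probes on each, 36 of them in the same direction and 17 in opposite directions.

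The region with the most probes among the largest rises was chr14:105987405-106063477, strand R. Its probe A_30_P01026684 read -2.88, -2.87 and -2.65 on WT floating 1, WT floating 3 and KO adherent 2. It read 0.10, 1.69, 0.70, -0.90 and 0.96 on KO floating 1, KO floating 2, WT floating 2, KO floating 3 and KO adherent 1. All 5 Cbx3-low arrays lay above all 3 Cbx3-high arrays, with KO floating 3 the lowest of them. The means were 0.51 ± 0.97 (SD, n = 5) and -2.80 ± 0.13 (SD, n = 3), a difference of 3.31 (SE 0.50, limma adjusted p = 0.00338), 9.92-fold.

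Of the 10 R probes of this region 7 passed, all higher. For 6 of these, detected on all arrays, the difference lay between 3.095 and 3.31, and A_30_P01031161, above background on 0 of 3 Cbx3-high arrays, was at least 6.03-fold higher. Of the rest, 2 were above background on 0 arrays. The eighth tested probe, A_30_P01029141, did not pass (0.23, SE 0.59, limma adjusted p = 0.774). It read -1.02, -0.48 and 0.05 on the Cbx3-high arrays and 0.48, -1.30, 0.90, 0.16 and -1.51 on the Cbx3-low arrays in the order above, low on KO floating 2 and KO adherent 1, where the other 7 were high. On strand F of the same region 2 of 3 tested probes were higher, A_30_P01018523 by at least 2.05-fold (adjusted p = 0.00212) and A_30_P01019704 by at least 1.501-fold (adjusted p = 0.00192). Both were above background on Cbx3-low arrays alone and entered the test through these. The remaining F probe, A_30_P01022696, did not pass (0.82, SE 0.59, limma adjusted p = 0.299) and was, like A_30_P01029141, lowest on KO floating 2 (-1.35) and KO adherent 1 (-1.32). Within 1 region, then, probes followed 2 different array patterns.

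**Figure D4:**
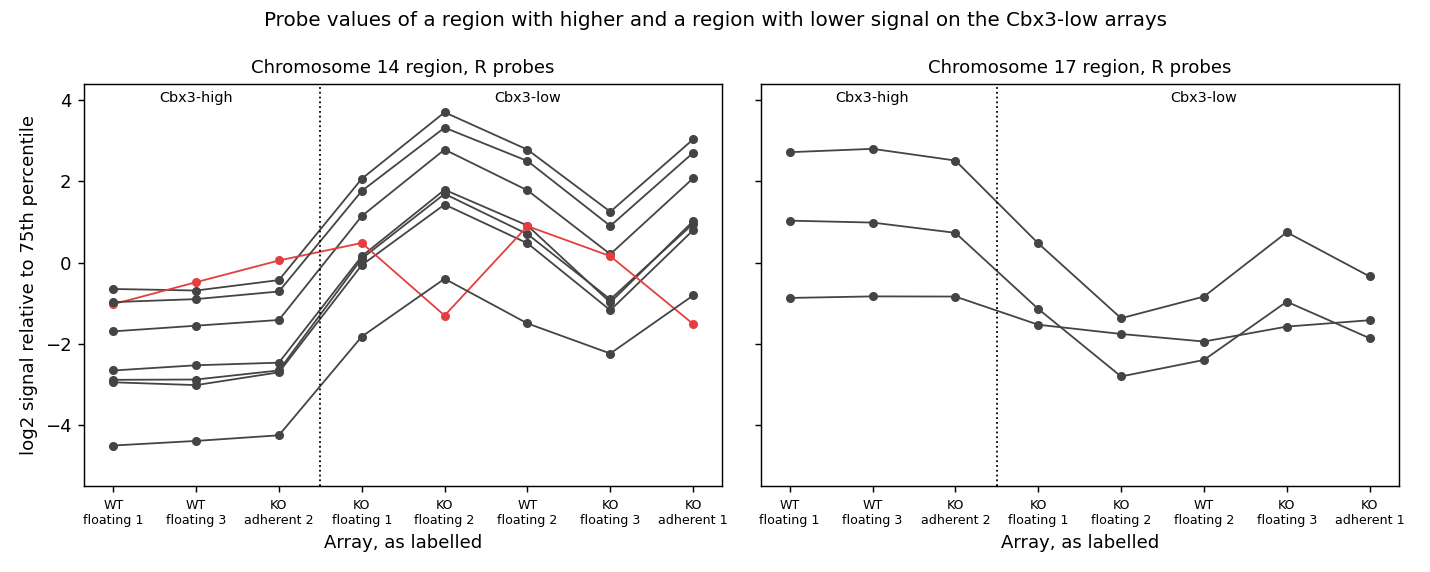
Values of the R probes of the chromosome 14 region (left, 8 tested probes) and of the chromosome 17 region (right, 3 tested probes) on the 8 arrays (horizontal axis; dotted line between Cbx3-high and Cbx3-low), as log2 signal relative to the array's 75th percentile (vertical axis). On the left 7 probes rise together, the 6 detected on all arrays by 3.095 to 3.31, and probe A_30_P01029141, in red, does not; on the right all 3 probes fall, by a log2 difference of -2.94, -2.75 and -0.80.

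On chromosome 4 the rise was from signal not above background. Probe A_30_P01019099 of chr4:147105275-147171025, strand R, read -5.86, -5.47 and -6.23 on the Cbx3-high arrays, above background on none of them, and -2.36, -1.90, -1.33, -2.79 and -2.74 on KO floating 1, KO floating 2, WT floating 2, KO floating 3 and KO adherent 1. Signal was at least 3.29-fold higher on the Cbx3-low arrays (limma adjusted p = 0.000894), a bound that replaces the dim signal of an array by the lowest that counted as well above background there, wherever that is the higher value. The 2 other tested probes of the region, A_30_P01020257 and A_30_P01028476, were also above background on Cbx3-low arrays alone, at least 1.94-fold and 1.96-fold higher (adjusted p = 0.00141 and 0.00168). A short region on the same chromosome, chr4:146890596-146891297, strand F, held A_30_P01025794, at least 2.28-fold higher (limma adjusted p = 0.00432), with KO floating 3 highest at -1.13 and the other Cbx3-low arrays at -3.67 to -2.84.

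On chromosome 5 the short region chr5:15033568-15033987, strand F, rose on all 3 of its probes. A_30_P01028171 read -4.93, -4.30 and -4.78 on the Cbx3-high arrays, above background on 0 of them, and -1.34, -1.48, -0.86, -1.55 and -1.31 on the Cbx3-low arrays, a narrow band (at least 6.22-fold higher, limma adjusted p = 0.000127). A_30_P01023066, detected on all 8 arrays, was higher by 3.11 (SE 0.25, adjusted p = 0.000528), with -2.07, -2.01 and -2.98 against 0.69, 0.73, 1.17, 0.48 and 0.70. The third, A_30_P01019458, was higher by 1.48 (SE 0.26, adjusted p = 0.00527) and above background on 1 of 3 Cbx3-high arrays. Like A_30_P01028171, it was tested through the Cbx3-low arrays alone, which favours higher. Longer regions that overlap this one on the same strand are on the array, so these are not separate loci: chr5:14923900-15062725 had 4 of 4 tested probes higher, 1 of them detected on all 8 arrays.

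On chromosome 1, chr1:73664661-73911040, strand R, all 3 probes passed as higher. A_30_P01022642 read -4.24, -3.72 and -3.44 against -1.13, -0.08, -0.74, -1.12 and -0.25 (3.14, SE 0.30, limma adjusted p = 0.000867), and it was above background on 1 of 3 Cbx3-high arrays. The other 2, A_30_P01022954 and A_30_P01031678, were higher by 2.86 and 2.67 and above background on 1 and 2 of 3 Cbx3-high arrays. All 3 were thus tested through the Cbx3-low arrays alone, which favours higher. On chromosome 12, chr12:20620869-21028045, strand F, is covered by 1 probe, A_30_P01030022, which read -4.68, -5.08 and -3.94 against -1.31, -1.06, -0.53, -1.93 and -0.96 and came to at least 6.48-fold more (limma adjusted p = 0.00102). Its levels did not overlap either, and 0 of 3 Cbx3-high arrays were above background.

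A region with strong signal at both levels was chosen after its values were seen, chr7:128341797-128414692, strand R, whose 5 probes were all detected on every array. A_30_P01026095 read 1.75, 1.71 and 1.97 on the Cbx3-high arrays and 4.34, 4.98, 4.55, 3.23 and 4.80 on the Cbx3-low arrays, again with KO floating 3 the lowest of these. The 5 probes were higher by 2.55 to 2.75 (limma adjusted p of 0.00230 to 0.00273). On strand F of this region 4 of 5 probes were above background on 0 arrays and A_30_P01024584 on KO floating 2 alone. The rise was thus measured on R alone here, unlike on chromosome 14.

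Among the probes that were lower on the Cbx3-low arrays, those of chr17:32213027-32228368, strand R, differed most. A_30_P01026762 read 2.71, 2.80 and 2.51 on the Cbx3-high arrays and 0.47, -1.37, -0.83, 0.75 and -0.34 on KO floating 1, KO floating 2, WT floating 2, KO floating 3 and KO adherent 1. The levels did not overlap, and the difference was -2.94 (SE 0.46, limma adjusted p = 0.00363), 7.66-fold. A_30_P01020734 gave -2.75 (SE 0.41, adjusted p = 0.00326) and the third probe, A_30_P01018572, a smaller -0.80 (SE 0.13, adjusted p = 0.00459).

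A pair of overlapping regions on chromosome 10 was faint on the Cbx3-high arrays and mostly below background on the Cbx3-low arrays. A_30_P01022053 of chr10:24269165-24276690, strand R, read -3.04, -2.79 and -3.26 on the Cbx3-high arrays and was above background on 0 of 5 Cbx3-low arrays, where it read -7.13 to -4.71 (at least 2.64-fold lower, limma adjusted p = 0.00765). A_30_P01032953 of chr10:24269317-24270145, strand R, gave -2.48 (SE 0.43, adjusted p = 0.00526) and was above background on 1 of 5. Other probes there were too faint to be tested: A_30_P01017799 and A_30_P01018924 were above background on 2 of 3 Cbx3-high and 0 of 5 Cbx3-low arrays each. A_30_P01019744 was above background on KO adherent 2 (-3.10) and KO floating 3 (-3.73) alone, 1 array of each level. The remaining probes were above background on 0 arrays.

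Other regions fell by smaller amounts but on several probes. On chr3:40439525-40509975, strand F, 4 of 4 probes passed as lower, from -1.88 for A_30_P01027242 (SE 0.40, limma adjusted p = 0.00984) to -1.66 for A_30_P01020704. A_30_P01027242 read -0.01, -0.02 and -0.42 on the Cbx3-high arrays and -1.44, -3.01, -2.68, -1.40 and -1.61 on the Cbx3-low arrays, lowest on KO floating 2 and WT floating 2. On chr12:50490638-50508093, strand F, A_30_P01032159 gave -1.90 (SE 0.32, adjusted p = 0.00442) and A_30_P01027901 -1.61, and on chr6:35201798-35217831, strand F, A_30_P01019266 gave -1.97 (SE 0.25, adjusted p = 0.00212) and A_30_P01018280 -1.31. All of these probes were detected on all 8 arrays.

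Further regions were mixed or faint. On chr14:26834450-26847000, strand F, A_30_P01018424 fell (-1.87, SE 0.34, limma adjusted p = 0.00599) and A_30_P01024251 did too (-1.67), while A_30_P01028064 of the same region was at 0.32 and did not pass (adjusted p = 0.101). On chr2:48805604-48974396, strand F, A_30_P01024553 gave -2.07 (SE 0.36, adjusted p = 0.00496), A_30_P01031309 -1.40, and A_30_P01027678 -0.62, which did not pass (adjusted p = 0.085). On chr5:23195569-23218551, strand F, 1 of 3 probes was measurable, A_30_P01021855, with -2.42 (SE 0.44, adjusted p = 0.00615). Of the 5 Cbx3-low arrays, A_30_P01024251 was above background on 2, A_30_P01021855 on 3 and each of the 3 chromosome 2 probes on 4. These probes were tested through the Cbx3-high arrays alone, which favours lower. Without the 2 arrays that go against their label, the 10 named higher probes and the 10 named lower ones all passed in the same direction. These 20 had been chosen for their differences on these same arrays. With normexp background correction and quantile normalization all 20 passed as well, but 9 of the differences were smaller by over 1.5 times, most of all A_30_P01022053, from -2.93 to -1.06, and A_30_P01025794, from 3.14 to 1.26.

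The 8 noncoding probes with the highest mean signal, which reflects the probe as well as the RNA, changed little. Of these, 3 lie on chr19:5801802-5802597, strand R, and differed by 0.35, 0.47 and 0.54, of which A_30_P01028215 passed (0.54, SE 0.16, limma adjusted p = 0.0311). It read 7.27, 7.70 and 7.36 on the Cbx3-high arrays and between 7.72 (WT floating 2) and 8.27 (KO floating 3) on the Cbx3-low arrays. KO floating 2 and WT floating 2 were the lowest of the Cbx3-low arrays here too, but lay above the Cbx3-high arrays. By its numbers this mm9 region lies beside the GRCm38.p6 promoter of Malat1 (NEAT2) printed above, but positions were not converted between the builds. The NEAT2 probes fell much further on KO floating 2 and WT floating 2, by at least 2.57 against each other Cbx3-low array. Whether these bright probes and the NEAT2 probes report the same transcript was not tested. A_30_P01026458 of chr11:22681800-22707775, strand R, was lower (-0.51, SE 0.16, adjusted p = 0.0398), as was A_30_P01022075 of chr17:17481706-17482457, strand R (-0.34, SE 0.10, adjusted p = 0.0353). The other 3 did not pass: A_30_P01021243 of chr17:48068261-48087905 (-0.69), A_30_P01030669 of chr7:108209996-108216032 (-0.46) and A_30_P01019010 of chr11:96111499-96126224 (0.33). Under quantile normalization A_30_P01022075 turned to 0.13 and A_30_P01030669 to 0.03, and without the 2 arrays against their label none of the 3 calls was kept (adjusted p of 0.0839 to 0.117). Over 22 other settings A_30_P01026458 did not pass in 15 and came as close to 0 as -0.06, and A_30_P01028215 did not pass in 7. A_30_P01022075 failed to pass in the same direction in 12 and turned sign in 2.

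Passing probes were also counted in windows of 1000000 bases. The windows named here were chosen after their values were seen, and no expected count per window was computed. The counts include probes that entered the test through the Cbx3-low arrays alone, which favours higher. They were not repeated for probes detected on all 8 arrays. Over all tested probes 16.3% passed as higher and 20.0% as lower, and of the noncoding ones 21.5% and 10.1%. In chr13:62000001-63000000, 13 of 15 tested noncoding probes passed, 12 of them higher, from 6 loci. In chr11:95000001-96000000, 16 of 24 passed, all higher, from 4 of 6 loci, with differences of 0.44 to 1.29. In chr2:175000001-176000000, 8 of 9 passed and in chr2:176000001-177000000, 5 of 8, all higher. In chr8:40000001-41000000, by contrast, 6 of 12 passed and all were lower. Other windows were mixed or held few passing probes. In chr17:6000001-7000000, 8 of 18 passed, 4 higher and 4 lower, and in chr7:134000001-135000000, 7 of 28 passed. By chromosome, the passing share lay between 21.4% (chromosome 15) and 40.3% (chromosome 2), beside the 36.3% of all probes.

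As labelled, no noncoding probe passed in either comparison. For KO floating against WT floating, 0 of 4527 tested noncoding probes passed limma (1 of 26765 probes in all, 0.00374%), with 82 at an unadjusted p under 0.05. The probes named above leaned the same way but did not pass: the 10 higher ones differed by 1.74 to 2.45 and the 8 lower ones that could be tested by -1.61 to -1.02 (adjusted p = 0.817 for each). They had been chosen for their differences by Cbx3 level on arrays that this comparison shares. That choice favoured their direction, which adds no separate evidence. Here WT floating 2 entered the wild-type mean with the values given above. Next, WT floating 2 and KO adherent 2 were left out for their Cbx3 signal. Of all probes 43 of 30396 then passed, 22 higher and 21 lower in KO. Of the noncoding probes 3 of 6083 passed, all higher in KO, and were named after their values were seen. These were A_30_P01023066 (2.67, adjusted p = 0.0361) and A_30_P01028171 (adjusted p = 0.046) of the chromosome 5 region and A_30_P01025671 of chr6:11994002-11997859, strand F (adjusted p = 0.0494). The last 2 were above background on 0 of the 2 WT arrays left. This comparison and the one by Cbx3 level share arrays.

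For KO adherent against KO floating, 0 of 4527 noncoding probes passed limma (0% of all 26765), with 92 at an unadjusted p under 0.05. Quantile normalization gave 4 of 4527, all higher in adherent culture, beside 7 of 26765 over all probes. Leaving out WT floating 2 gave 4 of 4540, all higher as well, beside 6 of 26881 over all probes. The 5 probes that passed in either setting, named after their values were seen, were above background on KO adherent 1 and 2 alone and were tested only for that, which favours this direction. A_30_P01028763 of chr13:21257927-21258387, strand R, read -2.15 and -1.24 on these and -6.93 to -5.49 on the other 6 arrays. A_30_P01020977 (chr6:30983012-31009987, R), A_30_P01032093 (chr5:22058025-22072475, R), A_30_P01032820 (chr15:3230734-3251196, R) and A_30_P01025744 (chr2:79521628-79521871, F) were the others. KO adherent 1 and 2 differ in Cbx3 level, and these probes were detected on both.

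Noncoding genes outside the probe set were sparse on the array. Of 38 well-known noncoding genes in a list drawn up with earlier results of these data known, 20 had a RefSeq-matched probe and 16 were tested by Cbx3 level, with a median difference of -0.05. Of these 4 passed, beside the 36.3% of all tested probes. For a gene with more than 1 RefSeq-matched probe, 1 is given. Mir9-3hg, the host transcript of a neural microRNA, was higher by 2.78 (SE 0.45, limma adjusted p = 0.00419), Jpx, a neighbour of Xist and above background on 0 Cbx3-high arrays, by at least 1.68-fold (adjusted p = 0.00605) and Kcnq1ot1 by 0.74, while Pvt1, a neighbour of Myc, was at -0.85 (SE 0.27, adjusted p = 0.0375). The Mir9-3hg and Kcnq1ot1 probes were each above background on 2 of 3 Cbx3-high arrays. Like Jpx, they were tested through the Cbx3-low arrays alone, which favours higher. Malat1 and Neat1 probes outside the set read low on KO floating 2 and WT floating 2 as well, 1.98 and 2.15 for Malat1 against 3.49 to 5.02 elsewhere.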

How the data were processed

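The members, gene lists and comparisons were chosen with earlier results of these data known. The deposited scanner files hold 1 spot intensity per array on a linear scale and come from Agilent Feature Extraction 11.0.1.1 per the file headers, against version 9.1.3.1 in the submitters' processing notes. The files hold 99.95% of noncoding values within 0.01% of those in the authors' deposited value table, so that table is linear and not normalized between arrays. From the deposited intensity the log2 was taken and set relative to the 75th percentile of the array's non-control spots. Repeated spots were averaged after outlier spots had been dropped, so 60 noncoding probes lack a value on some array and were fitted on the rest. The flag for well above background is the scanner software's, per the file headers, and has no unit.

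Every probe was tested by itself with limma 3.58.1 in R 4.3.3 (lmFit and eBayes, two-sided), adjusted over all tested probes (Benjamini-Hochberg, threshold 0.05). A probe entered if it was well above background on each array of any group compared. The Cbx3 level comparison used 5 low and 3 high arrays, and both labelled comparisons used 1 fit of 3 groups. Probes were named if they were among the 10 largest passing differences per direction with no overlap between levels and signal above background throughout the higher level, or among the 8 brightest, or carried a transcript name or no strand, or shared a region with those. Named regions without strand were too variable or faint to pass and are not described. On simulated data for the Cbx3 level comparison (25297 probes) the recovered share was 50% at 2-fold and 82% at 4-fold, for KO against WT floating (26684 probes) 12% and 72%, and for adherent against floating (26684 probes) 8% and 48%. The number of arrays limits the precision.

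Deviations from the group means of same-numbered WT and KO floating arrays correlated across probes at 0.118, 0.603 and 0.344 for numbers 1, 2 and 3. By a preset limit of 0.1 this counts as pairing. Among noncoding probes number 1 gave -0.0757, and WT floating 1 with KO floating 3, which differ in number, gave 0.486, so the pairing is uncertain. A further marker of the ganglionic eminence list is not reported here.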

Additional observations from a re-analysis of the deposited data

How the results depend on the processing

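The count of noncoding probes that passed by Cbx3 level, 1243, was 482 at 2-fold or more, 755 with no filter on dim probes, 565 without the 2 arrays against their label and 591 with floating arrays alone. The noncoding probes tested in these settings were 3926, 16251, 3944 and 3942. Over the whole array 2842 of 25363, 4413 of 55681, 4338 of 25433 and 4292 of 25438 probes passed, in the same order. Leaving out each array in turn gave 644 to 1571, with 644 of 4257 without WT floating 3, 772 of 3963 without WT floating 1 and 1571 of 4097 without KO floating 3. Over the whole array these were 4487 of 26305, 5312 of 25457 and 11228 of 25845. The other settings gave 902 (probes above background on all arrays) to 1442. More noncoding probes were higher than lower in each of these. All tested probes had fewer higher than lower in the main setting, at 4125 against 5078. They had more higher in some others, at 2439 against 1974 with no filter and 2205 against 2133 without the 2 arrays against their label. More higher than lower calls were thus not particular to the noncoding probes in every setting. With the replicate block the count was 1442, and 0 for each labelled comparison, so the pairing changed no call as labelled. For KO against WT floating, 0 became 3 without the 2 arrays against their label, and leaving out each array gave 0 to 2 (A_30_P01029578 and A_30_P01026784, lower, when WT floating 3 was omitted). Over all probes 43 of 30396 passed without the 2 arrays, and 3 of 27253 without WT floating 3. For KO adherent against KO floating, 0 became 4 with quantile normalization, and leaving out each array gave 0 to 4 (4 when WT floating 2 was omitted). Over all probes 7 of 26765 passed with quantile normalization, and 6 of 26881 without WT floating 2. All 20 probes named as higher or lower kept direction and call in every setting in which they were tested. They had been picked from these same arrays for large differences without overlap, so this adds no separate evidence. The setting limited to probes above background on all arrays tested 5 of the 10 higher and 6 of the 10 lower ones. The others had entered the main test through the level where they read higher. With normexp and quantile normalization the sizes fell to between 1.26 and 2.92 for the higher and between -2.65 and -1.06 for the lower ones. Of the 8 brightest, A_30_P01030669 turned from -0.46 to 0.0317 with quantile normalization, and A_30_P01022075 from -0.34 to 0.131 with it and to 0.114 with normexp and quantile normalization. The cause was not tested. Faint probes limit the rest: 49.2% of noncoding probes were above background on 0 arrays.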

Other observations

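Further noncoding probes shared the array patterns of the named transcripts. Of the 3059 probes detected on all arrays, 103 (3.37%) were lower by more than 1 (log2) on WT floating 2 and KO floating 2 than on each of the other 3 Cbx3-low arrays, beside 1.60% of the other probes, and 6 were higher. Besides NEAT1 and NEAT2 they covered all 3 probes of chr13:48620882-48643532, strand R, and of chr3:145313275-145315057, strand F. In the opposite direction stood all 3 probes of chr4:135911688-135915355, strand F. These were chosen after their values were seen.

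The detection pattern of XIST, though not its size, was shared by 1 other probe, A_30_P01031642 of chr17:29374758-29387733, strand R. Its means differed by 0.44 between the 6 arrays and the other 2. Its values overlapped, at -4.09 to -2.84 on the 6 and -3.76 and -3.86 on WT floating 1 and KO floating 3. The reverse pattern was held by 6 probes to 6 targets, 0 of them on chromosome X, among them the H19 probe A_30_P01026972.

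Over the 3059 probes, arrays correlated between 0.897 and 0.987, across probes that are not independent. WT floating 1 was closest to the array labelled KO adherent 2 (0.987), and KO floating 2 to the array labelled WT floating 2 (0.986).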
